A study of Sus scrofa with 8 samples.

Results

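The genes described here are the DNA replication genes MCM2, MCM3, MCM4, MCM5, MCM6, MCM7, PCNA, PCLAF, RRM2 and TYMS. They were chosen by symbol, and 9 of the 10 were found by name among the 21301 genes of the count matrices. RRM2 has no row under that symbol and was not analysed here. The matrices are droplet single-cell RNA sequencing of pig embryos in 8 libraries, 1 for each of 4 stages in each of 2 breeds. ZZ libraries came from Tibetan pigs and DZ libraries from the cross of Duroc and Tibetan pigs. Somites were taken at embryonic days 16, 18 and 21 (E16, E18, E21) and the myotome at E28, so the tissue and the last stage cannot be told apart. Each library was a pool of 5 embryos from the same sow, so the litter cannot be told apart from the stage and breed. No group was treated or genetically modified, and a library is the unit of replication throughout.

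Before a cell divides, the MCM2 to MCM7 proteins are loaded as a ring onto replication origins and later unwind the DNA as the core of the replicative helicase. PCNA is the sliding clamp that holds polymerases on the DNA, PCLAF is a small PCNA partner, and TYMS makes the thymidine nucleotide. Their transcripts are known to rise towards S phase under E2F factors and to be low in cells that have left the cell cycle, such as muscle fibres and neurons.

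In the RefSeq annotation of Sscrofa11.1, the build the count files were made on, 5 of the 6 MCM genes lie on different chromosomes. MCM2 is at chr13:72630378-72651270, MCM3 at chr7:46084648-46104425 and MCM4 at chr4:79674737-79686964. MCM6 is at chr15:15923638-15978587 and MCM7 at chr3:8005890-8014047, while MCM5 sits on an unplaced scaffold, so its position relative to the others is not known. PCNA is at chr17:14137746-14142584, PCLAF at chr1:107659509-107669477 and TYMS at chr6:105642730-105660279. The window from 250 bases before to 50 after each annotated gene start was searched on both strands for the E2F words TTTCCCGC, TTTCGCGC, TTTGCCGC and TTTGGCGC, and for CCAAT. An E2F word was found in 4 of the 9 windows (MCM3, MCM6, PCLAF and TYMS), against 3.24% of the 20664 windows of protein-coding genes. CCAAT was found in 5 of the 9 (MCM2, MCM3, MCM6, PCNA and PCLAF), against 35.7% of all windows. The 150 bases before the start of 3 genes are shown to let the letters be seen beside the expression, up to the annotated start and on the gene's strand. They are MCM6 (chr15:15923488-15923637, plus strand), which held the most E2F words of the 9, PCLAF (chr1:107659359-107659508, plus strand), and MCM7 (chr3:8014048-8014197, minus strand), which held none. Capitals mark E2F words, the first pair in MCM6 overlapping on opposite strands.
MCM6: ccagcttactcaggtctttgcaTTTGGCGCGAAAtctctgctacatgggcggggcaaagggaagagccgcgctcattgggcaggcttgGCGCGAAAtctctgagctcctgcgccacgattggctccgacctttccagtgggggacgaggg
PCLAF: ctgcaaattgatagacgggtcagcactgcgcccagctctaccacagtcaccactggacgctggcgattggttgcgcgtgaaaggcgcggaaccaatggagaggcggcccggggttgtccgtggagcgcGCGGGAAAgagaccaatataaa
MCM7: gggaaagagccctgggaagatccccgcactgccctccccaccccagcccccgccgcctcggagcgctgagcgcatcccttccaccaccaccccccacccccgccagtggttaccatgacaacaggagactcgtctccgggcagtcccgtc
In MCM6 the words begin 128, 124 and 62 bases before the start, and in PCLAF 22 bases before it. In MCM3 and TYMS they begin 36 and 17 bases after it. These are letter matches beside an annotated start, and binding was not measured.

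After filtering, 74147 of 90688 barcodes were kept, 5436 to 10956 a library, with a median of 3405 to 6160.5 UMIs (unique molecules) a cell. Pairs of libraries shared 13 to 38 barcodes, at most 0.404% of the smaller library. In the E16-ZZ library 39.2% of barcodes were over the limit of 10% mitochondrial UMIs, against 1.05% to 9.15% in the other 7, and both E16 libraries were counted with another Cell Ranger version than the rest. Cell types were taken by rules on marker UMIs that use no replication gene. Before a rule for PAX6+ or SOX3+ cells, described below, was added, 49.1% of cells met no rule. Cells that met more than 1 rule, 7.60% of the total, were left out of every cell type. At E28 this kept 132 of 407 MYOD1+ myoblasts in ZZ and 162 of 440 in DZ. Of MYF5+ progenitors it kept 191 of 540 in ZZ and 413 of 907 in DZ. Check markers stood at 2-fold or more over the whole library for 3 of 3 genes in the MYH3+ myocytes and 4 of 4 in the cardiac and erythroid cells of each library tested. Neurons held 4 of 4 in every library but E16-ZZ, with 3 of 4, and endothelial and SOX10+ cells held 3 or 4 of 4. Macrophages held 4 of 4. Check markers were weaker in the cell types given next. MYOD1+ myoblasts held 3 of 4 at E21 and 2 of 4 at E28 (MSC and CDH15, without MYOG), and MYF5+ progenitors of those libraries also held MSC and CDH15. PAX3+ progenitors held 3 of 4 in the early libraries and 2 of 4 at E21. PAX1+ sclerotome cells held 1 to 3 of 4 such markers, with NKX3-2 at 0 in 7 of 8 libraries, and chondrogenic cells 0 to 2 of 3 in the early libraries and 3 of 3 in the late ones. Fibroblasts held 2 to 4 of 4 from E16 to E21-ZZ and 0 of 4 in the other 3 late libraries. Levels are given as CPM, the UMIs of a gene per 1000000 UMIs of the summed cells, and no level is compared between genes.

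All 9 genes were lower in the 4 late libraries (E21, E28) than in the 4 early ones (E16, E18), to between 41.4% and 68.8% of the early level. For each gene every late library lay under every early one, and how many of all genes do so was not counted. An adjusted p under 0.05 in edgeR's quasi-likelihood test with Benjamini-Hochberg adjustment over all genes is what is meant below by a gene that passed or was called. By that rule 9 of 9 members were lower, against 17.7% of the 14682 genes tested. In a sum over cells, fewer replicating cells and fewer transcripts in each cell cannot be told apart.

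MCM2 was at 110 and 112 CPM at E16 (ZZ before DZ, as in every pair below) and at 115 and 114 at E18. It was at 62.9 and 55.5 at E21 and at 50.03 and 45.003 at E28. Its log2 fold change, late over early, was -1.27 ± 0.12 (SE, n = 4 and 4 libraries, edgeR adjusted p = 0.0016), the largest of the 9. The step lay between E18 and E21, and the breeds ran side by side. MCM7 was at 266, 342, 371 and 373 CPM in the early libraries, with the E16 pair before the E18 pair. In the late ones, in the same manner, it was at 221, 179, 144 and 154.99. It fell by 1.14 ± 0.15 on the log2 scale (adjusted p = 0.0027 in edgeR), and E16-ZZ was the lowest of the early libraries. MCM5 was at 163 to 177 CPM early and 81.5 to 104 late (log2 change -1.06 ± 0.15), MCM4 at 85.5 to 95.0 and 48.5 to 54.1 (-0.98 ± 0.11), and MCM3 at 72.2 to 90.9 and 40.1 to 60.5 (-0.83 ± 0.16).

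MCM6 moved least. It was at 116, 132.65, 145 and 140 CPM in the early libraries and 114, 98.8, 106 and 100.0 in the late ones, in the same order. Its change was -0.54 ± 0.09 (edgeR adjusted p = 0.0053), and its highest late library lay just under its lowest early one. PCNA was at 249 to 318 CPM early and 159 to 218 late, a log2 change of -0.70 ± 0.14. PCLAF went from 146 to 188 CPM early to 88.2 to 108 late, a change of -0.93 ± 0.17. TYMS was close to the floor of the data, with 63 to 258 UMIs in a whole library and 3.67 to 4.49 CPM early against 1.46 to 3.42 late. Its change was -1.10 ± 0.31 (edgeR adjusted p = 0.030), and the call was lost without any 1 of 6 libraries (both E16 and both E28 libraries, E18-ZZ and E21-ZZ; adjusted p 0.065 to 0.088). Without both E16 libraries 5 members were still called, all MCM genes, and MCM3, PCNA and PCLAF stood at adjusted p = 0.069, 0.064 and 0.052 with log2 changes of -0.82, -0.72 and -0.66. Without both E28 libraries 8 were called, all but TYMS.

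**Figure D1:**
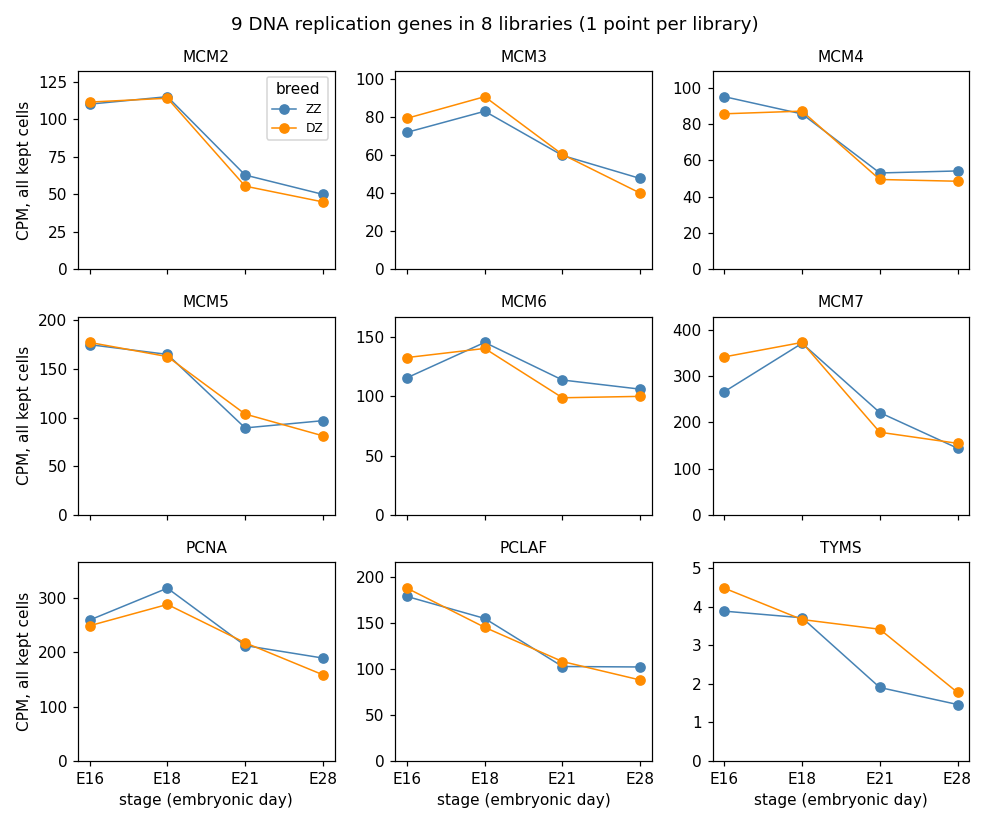
CPM of each of the 9 genes (vertical axis, from 0) at each stage (horizontal axis), summed over all kept cells, with 1 point per library and a line joining the stages of a breed. In each panel both E21 and both E28 points lie under all 4 early points, and TYMS stays under 5 CPM.

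Of 68 other replication genes tested in the same fit, 45 were lower late, 1 was higher and 22 did not pass, with a median log2 change of -0.61 against 0.02 over all genes tested. By role, 11 of 14 helicase activation and fork genes were lower, 8 of 11 polymerase subunits, 10 of 14 genes of the clamp loader, single-strand binding and Okazaki fragments, 5 of 9 licensing genes, 5 of 7 nucleotide genes, 3 of 5 chromatin genes and 3 of 8 control genes. The largest falls were in ORC1, a subunit of the origin recognition complex (-1.65 ± 0.17), CCNE1, the cyclin E that drives S phase entry (-1.38 ± 0.17), and CDT1, which loads the MCM ring (-1.34 ± 0.17). POLD4, a small subunit of polymerase delta, was the gene that rose (0.90 ± 0.15).

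The breeds were not told apart by these genes. No member was called between DZ and ZZ (0.00661% of 15119 genes were called, 1 gene, and 930 had an unadjusted p under 0.05). The log2 differences, DZ over ZZ, ran from -0.13 ± 0.10 in PCNA to 0.02 ± 0.10 in MCM7, with TYMS at 0.30 ± 0.23. No member was called for a breed difference in the late against early change, where 0% of genes were called by edgeR and 120 had an unadjusted p under 0.05. There the members lay between -0.25 ± 0.32 (MCM7) and 0.59 ± 0.63 (TYMS), with standard errors of 0.20 to 0.35 in the other 8.

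Along the skeletal muscle rules, no member passed a test from progenitor to myoblast, and the 8 tested members were lower in myocytes than in myoblasts. PAX3 marks cells of the dermomyotome, MYF5 and MYOD1 are the factors that commit cells to muscle, and MYH3 encodes an embryonic myosin heavy chain of differentiated fibres. MYF5+ progenitors against PAX3+ progenitors of the same 6 libraries showed 0 of 8 members called (0.747% of 8972 genes were called in either direction). MCM3, at -0.29 ± 0.12 (adjusted p = 0.49 in edgeR), was the only 1 of the 8 with an unadjusted p under 0.05. The other 7 lay between -0.11 and 0.06. TYMS did not pass the filter on low counts in this or any other comparison between cell types. MYOD1+ myoblasts against MYF5+ progenitors in the 4 late libraries showed 0 of 8 called (0.792% of 8081 genes), with log2 differences from -0.15 ± 0.16 (MCM2) to 0.20 ± 0.12 (PCLAF). Of 60 other replication genes, TOP2A, the topoisomerase that untangles daughter DNA, passed and was higher in myoblasts (0.39 ± 0.06).

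PCLAF was at 94.3, 161, 142 and 161 CPM in the MYOD1+ myoblasts of the 4 late libraries. In the MYH3+ myocytes of the same libraries it was at 6.68, 1.61, 1.60 and 0 CPM, from 4, 1, 1 and 0 UMIs. With 1054818 UMIs in the E28-DZ myocytes, a count of 0 allows a level of up to 2.84 CPM by counting error. The groups did not approach each other, and the log2 difference was -5.53 ± 0.40 (edgeR adjusted p = 8.4e-10). MCM3 went from 72.9, 58.5, 54.5 and 49.4 CPM to 6.68, 3.21, 0 and 1.90 (-3.86 ± 0.41). MCM7, of which more was left, went from 249, 175, 189 and 244 CPM to 61.8, 27.3, 36.8 and 40.8 (-1.95 ± 0.17). The 8 tested members all passed and were lower, against 20.9% of 7460 genes.

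MCM6 was left at 29.4% of its myoblast level (-1.77 ± 0.21), MCM7 at 25.9%, MCM2 at 20.5% (-2.29 ± 0.32) and PCNA at 15.8% (-2.66 ± 0.19). MCM5 was left at 10.8% (-3.21 ± 0.28), MCM4 and MCM3 at 6.93% and 6.87%, and PCLAF at 2.16%. Differences between genes in the size of the fall were not tested. The folds of MCM3, MCM4 and PCLAF rest on 0 to 4 UMIs in each late myocyte sum and depend on the prior count of the fit. These genes passed the filter on low counts only through the myoblast sums, where they are high. The count of 8 called includes them. The 8 were called without any 1 of the 4 libraries. Scaling by total UMIs alone put the median of all genes in this comparison at -0.49 on the log2 scale. In the 2 E18 libraries, where myoblasts were too few to sum, myocytes held 21.6 and 14.0 CPM of PCLAF and 105 and 83.7 CPM of MCM7. These early myocytes were less advanced by their markers, with MYL1 at 663 and 726 CPM against 3163 to 4161 in the late ones. Of 55 other replication genes, 48 were lower in myocytes and 2 higher, with a median of -1.89. ASF1B, a histone chaperone (-6.99 ± 0.85), ORC1 (-5.74 ± 0.65) and TK1, the thymidine kinase of S phase (-4.97 ± 0.33), fell most. RFC2, a clamp loader subunit (0.64 ± 0.14), and DTYMK, which phosphorylates thymidine monophosphate (0.49 ± 0.16), rose.

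**Figure D2:**
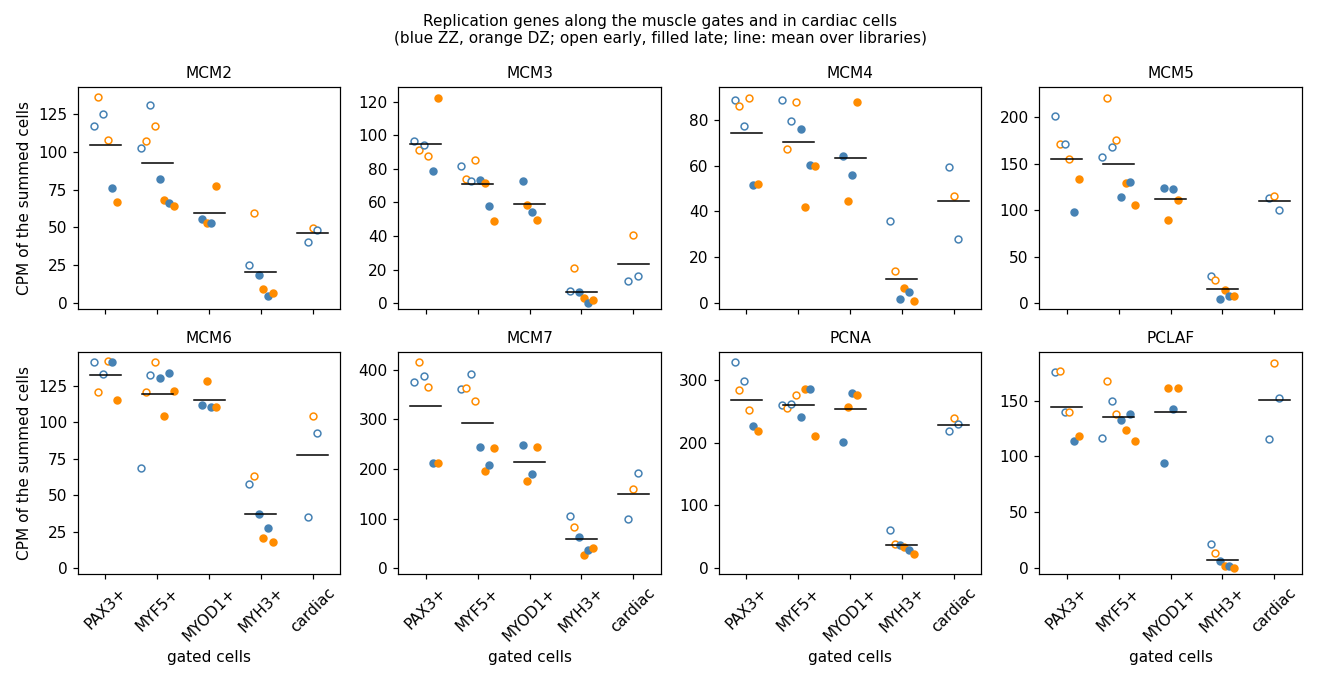
CPM (vertical axis) of 8 genes in summed PAX3+, MYF5+, MYOD1+ and MYH3+ cells and in cardiac cells (horizontal axis), 1 point per library with at least 20 cells, blue for ZZ and orange for DZ, open for E16 and E18 and filled for E21 and E28, with a line at the mean. MYH3+ myocytes lie lowest in each panel on average. The cardiac points, all from early libraries, overlap the early PAX3+ and MYF5+ points for PCLAF and the early MYF5+ points for MCM6. They lie under both for PCNA, MCM2, MCM3, MCM4, MCM5 and MCM7.

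Cardiac cells, a second kind of contractile cell, were present in 3 early libraries. PCLAF was at 116, 184 and 153 CPM in the cardiac cells of E16-ZZ, E16-DZ and E18-ZZ and at 175, 176 and 140 in the PAX3+ progenitors there. The ranges overlapped (log2 difference 0.13 ± 0.15, adjusted p = 0.57 in edgeR). PCNA was at 218, 238 and 229 CPM against 328, 283 and 298, a log2 difference of -0.17 ± 0.12 in the fit (edgeR adjusted p = 0.32). The fit does not scale by total UMIs, and under that scaling the median of all genes here lay at -0.24. MCM2 was at 40.4, 49.7 and 48.2 CPM against 117, 136 and 125, a difference of -1.23 ± 0.19 (edgeR adjusted p = 4.2e-05). MCM7 stood at -1.19 ± 0.14 and MCM3 at -1.51 ± 0.27, both called.

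MCM4 (-0.67 ± 0.22) and MCM5 (-0.48 ± 0.15) passed as well, and MCM6 did not (-0.45 ± 0.24, adjusted p = 0.17 in edgeR). In all 5 of 8 were lower, against 14.7% of 7006 genes, and 7 with scaling by total UMIs, where MCM6 (-0.67, edgeR adjusted p = 0.032) and PCNA (-0.39, adjusted p = 0.024) were called too. The share of all genes lower under that scaling is not reported here. The calls of MCM4 and MCM5 were lost in DESeq2 (adjusted p = 0.31 for each), without E16-DZ or E18-ZZ for MCM4 and without E16-ZZ for MCM5. Whether MCM2, MCM3 and MCM7 differ from PCLAF and PCNA in this change was not tested. Of 56 other replication genes, 28 were lower and 1 was higher. WDHD1, a fork protein (-2.27 ± 0.41), CDC7, the kinase that fires origins (-2.04 ± 0.69), and TOP2A (-1.75 ± 0.14) fell most, and POLD4 rose (1.68 ± 0.39). The sums held 40 to 177 cardiac cells.

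Neurons of E21 held less of these genes than cells with PAX6 or SOX3. They were compared with cells that had PAX6 or SOX3 UMIs and none of ELAVL3, ELAVL4, STMN2 or SOX10, in the 6 libraries up to E21. A UMI of INA or DCX was allowed. This rule replaced an earlier one, chosen after the values were seen, since SOX2 has no row by that name and the earlier rule held at most 3 cells a library. Of the check markers of these PAX6+ or SOX3+ cells, HES5 alone stood at 2-fold over the library in both E16 libraries and E18-ZZ. FABP7 did so as well in E18-DZ, and NES, FABP7 and HES5 did at E21. PCNA was at 341 and 330 CPM in the PAX6+ or SOX3+ cells of E21-ZZ and E21-DZ and at 86.9 and 89.9 in the neurons there. In the 4 early libraries it was at 342 to 423 CPM against 227 to 273. The gap was wider at E21 than before, a difference that was not tested.

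Over the 6 libraries 4 of 8 members were lower in neurons, against 6.22% of 10344 genes. These were PCNA (-1.06 ± 0.24), MCM3 (-1.09 ± 0.31), MCM6 (-0.58 ± 0.13) and MCM7 (-0.58 ± 0.12). The MCM3 call was lost without any 1 of 5 libraries (all but E16-DZ; edgeR adjusted p 0.070 to 0.12), PCNA without E21-ZZ or E21-DZ, and MCM6 without E21-DZ. PCLAF (-1.29 ± 0.42), MCM4, MCM5 and MCM2 were lower by their means, with edgeR adjusted p = 0.067, 0.052, 0.054 and 0.090. Without E21-ZZ 2 members were called and without E21-DZ 1. With the E21 libraries alone all 8 were called, at log2 differences from -2.95 (PCLAF) to -1.05 (MCM6), a fit chosen after the values were seen that rests on 2 libraries. The share of all genes called in that fit is not reported here. The early neurons held lower levels of markers of their type than the late ones. TUBB3, the neuronal tubulin, was at 309 to 1704 CPM in them and 3836 to 5673 in the late neurons, and SNAP25, a synaptic protein, at 6.71 to 19.7 against 112 to 225. What part these markers have in the late against early difference of neurons was not tested. Of 65 other replication genes 35 were lower in neurons and 0 higher. E2F8 (-1.64 ± 0.48) and E2F2 (-1.48 ± 0.40), of the factor family that drives S phase genes, and ASF1B (-1.52 ± 0.38) fell most.

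Chondrogenic cells, which make cartilage, were compared with PAX1+ sclerotome, the somite compartment from which cartilage forms, in all 8 libraries. No member was called (4.17% of 9811 genes were called in either direction). The log2 differences ran from -0.03 ± 0.12 (MCM3) to 0.29 ± 0.13 (PCLAF). PCLAF and MCM5 (0.18 ± 0.08) had an unadjusted p under 0.05, and edgeR adjusted p = 0.34 and 0.28. Of 65 other replication genes, POLE4, a small subunit of polymerase epsilon, was called (0.22 ± 0.06). The rule-based cartilage cells of the early libraries held few cartilage markers, with CNMD at 0 to 3.78 CPM against 10.2 to 141 in the late ones.

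The late against early change was next taken within 8 cell types that had at least 20 cells in each library. All 65 tests had a negative log2 change and 40 were called, while scaling by total UMIs gave 63 negative changes and 44 calls, the exceptions in sign being MCM6 (0.13) and PCNA (0.07) in fibroblasts. The median log2 change of all genes lay between 0.0016 and 0.033 in the fits as reported. The share of all genes called lower is given below with each cell type, and for total UMIs it is not reported here. MCM5 was called in 8 of 8 cell types, MCM2 in 7 and MCM7 in 6. MCM4 was called in 5, MCM3 and PCNA in 4 each, and MCM6 and PCLAF in 3 each. TYMS was tested in fibroblasts alone (-0.87 ± 0.56, edgeR adjusted p = 0.28). Differences between cell types in these changes were not tested.

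In MYF5+ progenitors 3 of 8 members were lower late, against 3.47% of 8571 genes. MCM7 was at 362, 362, 391 and 337 CPM in the early libraries and 245, 196, 208 and 242 in the late ones, which did not overlap (-0.73 ± 0.14, edgeR adjusted p = 0.0019). MCM2 (-0.76 ± 0.17) and MCM5 (-0.58 ± 0.17) passed too. The MCM5 call was lost without any 1 of 6 libraries (all but E21-DZ and E28-ZZ), and MCM2 without E18-ZZ or E18-DZ. PCNA in the same cells was at 259, 255, 262 and 276 CPM early and 241, 285, 286 and 210 late, with ranges that overlapped (-0.06 ± 0.15). MCM6 (-0.03 ± 0.18) and PCLAF (-0.19 ± 0.16) did not pass either. These cells gained MSC, a repressor found in muscle precursors, from 0 to 6.71 CPM early to 57.6 to 1453 late. Its part in the result was not tested.

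Chondrogenic cells showed the same 3 genes called and no other (against 8.26% of 8314 genes), with MCM2 at -0.98 ± 0.22, MCM7 at -0.87 ± 0.14 and MCM5 at -0.63 ± 0.15. PCLAF there stood at -0.01 ± 0.19 and MCM6 at -0.06 ± 0.16. In fibroblasts MCM2 (-1.06 ± 0.17), MCM5 (-0.66 ± 0.18) and MCM4 (-0.57 ± 0.15) passed, 3 of 9 against 12.4% of 10893 genes. MCM7 did not (-0.60 ± 0.21, edgeR adjusted p = 0.063). The fibroblast calls of MCM4 and MCM5 were lost without any 1 of 5 and 4 libraries, and with scaling by total UMIs (edgeR adjusted p = 0.12 and 0.062), which put the median of all genes there at 0.26.

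In PAX1+ sclerotome 7 of 8 passed, all but MCM6 (-0.39 ± 0.15, edgeR adjusted p = 0.082), against 11.2% of 9029 genes. MCM7 led with 282, 374, 398 and 400 CPM early and 220, 181, 134.1 and 145 late (-1.20 ± 0.18). In SOX10+ neural crest and glia 7 of 8 passed, all but PCLAF (-0.35 ± 0.16, edgeR adjusted p = 0.12), against 12.8% of 8587 genes, with MCM5 at -1.20 ± 0.16. PCNA in these cells lost its call without E16-ZZ, E21-ZZ or E28-DZ. In endothelial cells 8 of 8 passed, against 12.7% of 9124 genes, from -0.55 ± 0.14 (PCNA) to -1.19 ± 0.18 (MCM5). In neurons 8 of 8 passed, against 17.6% of 8749 genes, with PCLAF at 145, 203, 99.4 and 121 CPM early and 18.1, 28.8, 3.28 and 25.8 late (-2.91 ± 0.31). The lowest of these PCLAF values, in E28-ZZ, comes from a sum of 62 cells with few PCLAF UMIs. In erythroid cells MCM5 alone passed (-1.46 ± 0.35, edgeR adjusted p = 0.039), 1 of 8 against 0.786% of 3437 genes, and that call was lost without any 1 of 6 libraries (all but the E18 pair). Scaling by total UMIs put the median of all genes in erythroid cells at -0.64, and 7 of 8 members were called under it, all but MCM4, with MCM5 at -2.11 and MCM7 at -1.58 against -0.90 in the fit as reported. Between these scalings the erythroid changes differ by over 1.5-fold, and which holds was not tested. The share of all genes lower in erythroid cells under total UMIs is not reported here.

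**Figure D3:**
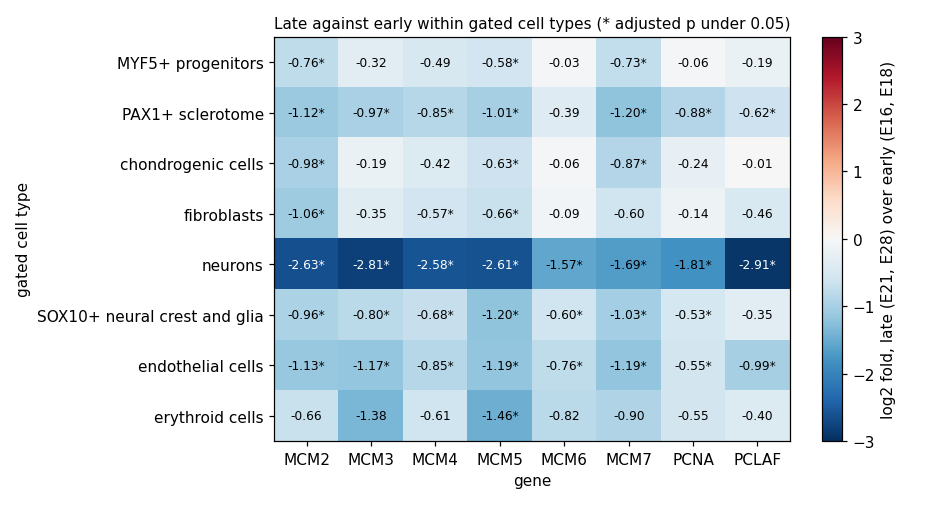
Log2 fold change, late over early libraries, of 8 genes (columns) within 8 gated cell types (rows), each from 4 early and 4 late summed libraries, with a star where the edgeR adjusted p is under 0.05. MCM2, MCM5 and MCM7 are blue in nearly every row, neurons are darkest, and MCM6, PCNA and PCLAF are near 0 in MYF5+ progenitors and PCLAF and MCM6 in chondrogenic cells.

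Among other replication genes within cell types, ORC1 was among the 3 largest falls in 6 of the 8 cell types, from -0.83 ± 0.22 in MYF5+ progenitors to -3.50 ± 0.31 in neurons. POLD4 rose in 5 cell types, most in MYF5+ progenitors (1.88 ± 0.29). ORC5 rose in sclerotome (0.74 ± 0.24), and RRM2B (1.19 ± 0.38) and TOP1 (0.53 ± 0.17) rose in fibroblasts. In MYF5+ progenitors 2 of 64 such genes were lower, ORC1 and RFC4 (-0.75 ± 0.20). In chondrogenic cells 10 of 62 were lower, in fibroblasts 12 of 65 and in erythroid cells 0 of 40. In sclerotome 31 of 63, in SOX10+ cells 31 of 64, in endothelial cells 38 of 63 and in neurons 49 of 59 were lower. The share of all genes lower in each of these cell types is the one given for it with the members.

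The sum of the 9 genes' CPM was compared between cell types within the early and within the late libraries, since the cell types were not present in the same stages. In the early libraries it was highest in PAX6+ or SOX3+ cells (1820 ± 80.6 CPM, SD, n = 4 libraries as for each type here unless given) and then in SOX10+ cells (1592 ± 82.4). PAX1+ sclerotome (1446 ± 124), PAX3+ progenitors (1444 ± 79.4), chondrogenic cells (1403 ± 90.2), neurons (1376 ± 60.7), MYF5+ progenitors (1341 ± 71.5) and lateral mesoderm (1281 ± 128) followed, neighbours in this order lying within their spread. Epithelial cells (1199 ± 75.0) and endothelial cells (1191 ± 113) came next, before fibroblasts (1018 ± 86.7) and cardiac cells (833 ± 125, n = 3). Erythroid cells (698 ± 262) and the myocytes of E18 (332 ± 20.2, n = 2) were lowest. The erythroid sums were 964 and 871 CPM at E16 and 413 and 543 at E18. HBZ alone, a check marker, took 123825 to 188054 CPM of these erythroid sums, which lowers the CPM of other genes. Its part in the erythroid rank was not tested. In the late libraries alone MYF5+ progenitors (1045 ± 59.2, n = 4), myoblasts (1021 ± 67.1, n = 4) and SOX10+ cells (1016 ± 45.7, n = 4) did not differ beyond their spread. PAX6+ or SOX3+ cells of E21 stood at 1244 ± 116 (n = 2), late neurons at 366 ± 45.5 and late myocytes at 125 ± 33.4 (n = 4 each). The 2 macrophage sums, from E28, held 921 and 1102 CPM.

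Counted cell by cell, replication genes were found together in fewer cells late than early. Each cell was thinned to 1500 UMIs, leaving out 3421 shallower cells, and cells with a UMI of at least 3 of the 9 genes were counted. Their share was 22.3%, 25.7%, 27.9% and 26.2% in the early libraries. It was 13.5%, 12.6%, 10.5% and 8.85% in the late ones. The early and late libraries did not overlap. Unthinned shares were 24.4% to 75.6% and follow the depth of the cells as well. In MYH3+ myocytes the share was 1 of 80 cells in E21-ZZ (1.25%, 95% exact binomial interval 0.0316% to 6.77%, counting error only) and 0 of 29 to 0 of 130 in the other 5 libraries. Without thinning it was 37.9% in E18-ZZ and 15.4% in E18-DZ myocytes, and 2.20% to 8.75% in the late ones. The median depth of myocytes was 5275 to 9976 UMIs. In late neurons the thinned share was 1.33% to 2.85% at a median of 3863 to 4484 UMIs. Free RNA was not measured separately.

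By cell type the share was 39.3% ± 3.55 (SD, n = 4) in early PAX6+ or SOX3+ cells and 19.04% ± 5.17 (n = 2) in those of E21. In myoblasts, all from late libraries, it was 15.6% ± 4.89 (n = 4). It was 29.9% ± 5.93 (n = 4) in early chondrogenic cells and 15.1% ± 4.22 (n = 4) in late ones. In MYF5+ progenitors it was 21.4% ± 5.35 early and 16.7% ± 3.20 late (n = 4 each), with overlap between the periods. In cardiac cells it was 5.56%, 16.1% and 7.89%. Only E18-ZZ held at least 20 cardiac cells and at least 20 myocytes, with 3 of 38 cells (exact binomial interval 1.66% to 21.4%) against 0 of 29 (0% to 11.9%), and these intervals overlap. Without thinning the shares there were 35.0% in cardiac cells and 37.9% in myocytes. Mitosis genes were counted beside the replication genes, as 2 or more of 7 (CDK1, CCNB1, CCNB2, AURKB, PLK1, CENPF, UBE2C) in a cell. Early cells with 3 or more replication genes held such a set in 17.0% to 23.4% of cells, and early cells with none of the 9 in 28.8% to 40.1%. At E21 the shares were 14.5% against 14.9% in ZZ and 9.85% against 17.2% in DZ. In the E28 libraries the order was the other way, 12.4% and 15.7% against 10.1% and 7.80%.

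**Figure D4:**
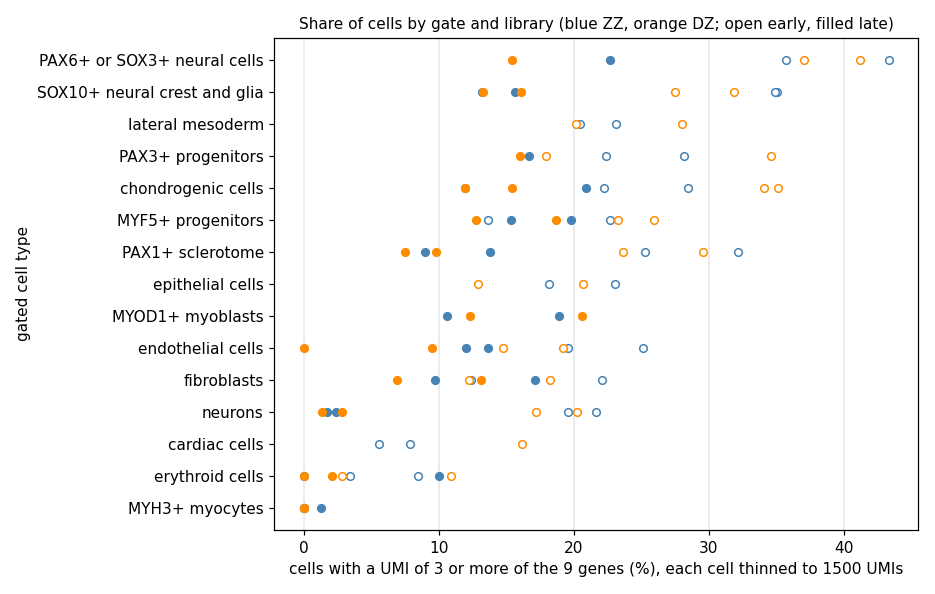
Share of cells (horizontal axis, percent) with a UMI of 3 or more of the 9 genes, after thinning each cell to 1500 UMIs, for each gated cell type (rows, by mean share), 1 point per library with at least 20 cells, blue for ZZ and orange for DZ, open for early and filled for late. PAX6+ or SOX3+ cells reach 43.3% and MYH3+ myocytes stay at or under 1.25%. The row order pools early and late libraries, and the cell types were not present in the same stages.

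The level in cells that carry a replication transcript was then taken, by keeping cells with a PCLAF UMI after thinning. Their share fell from 18.3% to 23.1% in the early libraries to 7.84% to 10.6% in the late ones, and was 0% to 1.12% in myocytes. Within them MCM5 was at 213 ± 12.0 CPM early and 221 ± 11.8 late (SD, n = 4 each), and MCM4 at 113 ± 3.23 and 112 ± 14.1. Neither showed the fall seen over all cells. MCM2 over all such cells was at 130 ± 9.97 CPM early and 102 ± 10.96 late, without overlap. MCM7 was at 406 ± 72.4 and 320 ± 38.6 CPM, with overlap. PCNA went the other way, at 377 ± 63.2 CPM early and 572 ± 26.6 late, without overlap. MCM6 was at 167.01 ± 24.8 and 214 ± 23.9, and MCM3 at 103 ± 15.6 and 121 ± 8.47, both with overlap. These levels are a description: the cells were picked by a member of the group, the cell types differ between the periods, and no test was run. Within fibroblasts PCNA was at 273 ± 50.1 CPM in such cells of 3 early libraries and 526 ± 50.9 in those of 4 late ones, without overlap. Within PAX1+ sclerotome it was at 440 ± 52.0 CPM in 3 early libraries and 478 ± 41.6 in 3 late ones, with overlap. The fibroblasts were also higher late, without overlap, in MCM3 (69.6 ± 7.63 and 121 ± 19.2), MCM5 (182 ± 6.53 and 220 ± 9.07) and MCM6 (146 ± 19.6 and 208 ± 30.8). MCM4 there was at 101 ± 10.3 and 105 ± 12.5. In the sclerotome the means of MCM3, MCM4 and MCM5 were lower late and that of MCM6 higher, each with overlap. MCM2 was not lower late in the fibroblasts, at 91.0 ± 10.99 and 96.1 ± 14.6 CPM, and in the sclerotome it was at 127 ± 14.6 and 103 ± 26.7, with overlap. MCM7 was at 293 ± 55.3 and 296 ± 36.1 CPM in the fibroblasts and at 447 ± 33.6 and 308 ± 26.4 in the sclerotome, where the periods did not overlap.

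Across 99 sums of a cell type in a library, the genes varied together. Pearson's r of log2(CPM + 1) between pairs of members had a median of 0.86 over 36 pairs. It was at least 0.79 in every pair without TYMS and at least 0.45 with it. Sums of one library share its depth, and sums of one cell type share its biology, so these values describe the data and carry no p. The 8 other genes closest to the members' mean, among 8011 with a mean of at least 10 CPM, included 5 of the listed replication genes. They were CHAF1A, a chromatin assembly subunit (r = 0.93), ORC1 (0.92), GINS1, of the helicase (0.92), DNMT1, the maintenance methyltransferase (0.92), and RRM1, the large ribonucleotide reductase subunit (0.92). Also among the 8 were the gene ENSSSCG00000031117, which the files give no symbol (0.95), and PTBP1, an RNA-binding protein (0.93).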

How the data were processed

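The authors sequenced 10x Chromium 3' libraries and deposited UMI counts per gene and barcode, made, per the file headers, with Cell Ranger 3.0.2 (6 libraries) or 3.1.0 (both E16 libraries) on Sscrofa11.1. Matrices were used as deposited. Barcodes with under 200 genes, over 30000 UMIs or over 10% of UMIs from 13 mitochondrial genes were left out, then 8247 barcodes with the highest Scrublet scores, at 0.8% per 1000 barcodes of a library. Counts were summed per library, or per library and marker-defined cell type with at least 20 cells, and tested with edgeR 4.0.16 (TMM scaling, low-count filter, quasi-likelihood F test, breed, stage or library as covariate; Benjamini-Hochberg over all genes tested, 0.05). SE is the log2 fold change over the root of F. Library totals were 39852689 to 57568266 UMIs. DESeq2 1.42.0, other scalings, filters and left-out libraries were alternatives. Named genes are all members, and of a list of 73 other replication genes (68 present) the counts and up to 3 with the largest change each way. Members and lists were chosen with earlier results of these data known. Cells are not replicates, and p-values measure the spread between libraries. Intervals cover counting error only. Not every gene found most like the members is reported here.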

Additional observations from a re-analysis of the deposited data

Results flagged for a closer look

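Of 40 groups of 4 or more libraries compared for a library standing apart, 1 had a value far from the others. This was MCM4 over all cells in E16-ZZ, at 95.0 CPM against 85.5 to 87.1 in the other 3 early libraries. Chance alone gives about 1 such group in 20. E16-ZZ was also the library with 39.2% of barcodes over the mitochondrial limit. The part of that in the value was not tested.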

How the results depend on the processing

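Of the 66 member values called, 1147 refits kept the call and direction in 1057 and lost the call in the same direction in 90, and none changed direction. Of 1278 refits of values not called, 39 gained a call. The late against early count over all cells, 9 members, was 8 to 9 without 1 library and 5 without both E16 libraries. The count within cell types, 40, was 36 to 41 without 1 library, 31 without both E16 libraries, 29 without both E28 libraries and 44 with total UMIs without TMM. It was 26 at a mitochondrial limit of 5%, where 2 cell types had too few cells to be fitted, and 26 with the rules applied to thinned cells, where 3 could not be fitted. With at least 50 cells a sum it was 28, and MYF5+ progenitors, endothelial and erythroid cells could not be fitted. Sums of sclerotome, chondrogenic cells, fibroblasts and SOX10+ cells did not change there, and neurons alone were refitted, with 8 calls. Over the cell types refitted, the counts as reported were 29, 26 and 8. The count of members for neurons against PAX6+ or SOX3+ cells, 4 as reported, moved most. It was 2 with no filter on low counts, 7 in DESeq2, 8 with rules on thinned cells, 0 without library as a block, 2 without both E16 libraries and 8 with the E21 libraries alone (added after seeing the data). Without 1 library it was 1 to 4. The cause was not tested. Cardiac cells, 5 as reported, gave 7 with total UMIs without TMM, 6 with no filter on low counts, 3 in DESeq2 and 3 without the library block, and 4 to 5 without 1 library. Chondrogenic cells, 0 as reported, gave 1 with no filter on low counts and 0 to 1 without 1 library. Myocytes gave 8 and the MYF5+, myoblast and breed comparisons 0 without each library. Within cell types there were 20 to 4360 cells a sum, and TYMS counts were too low for most fits. Library was the block between cell types and stage the block between breeds, and the labels carry no further replicate number. Scaling by total UMIs moved the median of all genes, late over early, to 0.20 over all cells, 0.18 in neurons, 0.13 in sclerotome and 0.12 in SOX10+ and endothelial cells, with the same number of members called in each.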
